A study of Mus musculus with 36 samples.

Results

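Roxadustat was compared with PBS in retinal RNA of C57BL/6 mice, in 6 libraries of each group, which are 12 of the 36 RNA-seq libraries of the series. These 12 were chosen by their labels: the treatments PBS and roxadustat within the table labelled liver. That table holds a retina transcriptome. Sag, which encodes rod arrestin, ranged from 2166 to 2927 FPKM (fragments per length of transcript, scaled to the mapped fragments of the library) over the 12 libraries, with a median of 2609 FPKM. Apoa1, a gene of hepatocytes, had a median of 0.278 FPKM there and 9038 FPKM in the 12 PBS and roxadustat libraries labelled retina, whose median for Sag was 0.201 FPKM. The libraries of this comparison are therefore called the retinal libraries (labelled liver) below. Another 6 retinal libraries came from mice given DMOG, and all 18 entered the fit. All groups carry the same strain name and no allele or transgene. The labels give neither dose, time after dosing nor age, and nothing in them says that replicates came from separate animals. Each group held libraries of both sexes by the female transcript Xist and the sum of Y-linked genes. PBS replicate 5 had 29.7 and 0.0656 FPKM for these, and PBS replicate 3 had 0.382 and 79.9 FPKM. Roxadustat replicate 2 had 24.9 and 1.21 FPKM, and roxadustat replicate 1 had 0.0266 and 64.5 FPKM. The libraries of a group therefore did not all come from the same animal. Whether those of the same sex came from separate animals is not given. The p-values speak of the spread among these libraries, which may be technical in part.

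The series asks how drugs that stabilise hypoxia-inducible factor (HIF) might act against retinopathy of prematurity, a disease in which vessels of the immature retina stop growing and later grow out of control. HIF is a transcription factor made of an oxygen-labile alpha subunit, such as Hif1a or Epas1, and a stable partner, Arnt. With oxygen present, the prolyl hydroxylases Egln1, Egln2 and Egln3 hydroxylate the alpha subunit, the Vhl ubiquitin ligase binds it, and it is degraded. Roxadustat is an orally active competitor of 2-oxoglutarate at these hydroxylases, and DMOG is an esterified 2-oxoglutarate analogue that also reaches other 2-oxoglutarate dioxygenases. Stabilised HIF raises genes of glycolysis, glucose and lactate transport, angiogenesis and its own degradation. The retina is known for making lactate from glucose even when oxygen is present, mostly in photoreceptors.

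Library totals ran from 542785 to 617853 FPKM over the 12 libraries, with 16991 to 17424 genes above 0. The deposited values carry no read counts. The spacing of low values gives a relative depth of 0.808 to 0.961 for the PBS libraries and 0.825 to 1.19 for the roxadustat libraries, so the PBS libraries were mostly shallower. The RNase P and RNase MRP RNAs (Rpph1 and Rmrp) took 12.2% to 17.8% of the FPKM total in PBS libraries and 13.96% to 21.1% in roxadustat libraries. Of 22558 genes, the 13779 whose mean level over the 18 libraries reached 0.5 FPKM were tested.

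Lens RNA was uneven among these libraries. The lens lies against the retina in the small eye of a mouse, and its fibre cells are packed with crystallins. Summed over 24 genes that define lens, PBS libraries held 4246, 19633 and 54320 FPKM (lowest, median, highest), or 0.782% to 8.79% of their total. Roxadustat libraries held 573, 1073 and 26007 FPKM, or 0.0936% to 4.28%, and DMOG libraries held 67.1 to 1766 FPKM. A single roxadustat library, replicate 1, made the high end of its group: the other 5 reached at most 2337 FPKM, below every PBS library. Among the PBS libraries, replicates 1, 2 and 6 held 30470 to 54320 FPKM and replicates 3 to 5 held 4246 to 8795 FPKM.

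Single lens genes were highest in the same libraries: for each of the 4 below, PBS replicates 1, 2 and 6 lay above the other PBS libraries, and replicate 1 was the highest roxadustat library. Mip, the lens fibre water channel, had 38.7, 238 and 605 FPKM in PBS and 1.62, 9.996 and 321 FPKM in roxadustat libraries, so that its log2 fold change was -3.78 ± 0.95 (standard error, adjusted p = 0.040). Cryaa, the alpha-A crystallin chaperone, had 1011, 3969 and 10054 FPKM against 111, 337 and 5734 FPKM (log2 fold change -2.85 ± 0.95, adjusted p = 0.12). Crybb1, a beta crystallin, had 213, 1091 and 2799 FPKM against 29.8, 52.1 and 1520 FPKM (-3.31 ± 0.86, adjusted p = 0.048). Lim2, a lens fibre membrane protein, had 27.2, 156 and 383 FPKM against 2.29, 7.49 and 220 FPKM (-3.27 ± 0.91, adjusted p = 0.066). The groups overlapped for all 4 genes, because roxadustat replicate 1 lay among the PBS libraries. Of the 24 lens genes, 4 passed the test, Mip, Cryba4, Crybb1 and Grifin, each lower with roxadustat, against 0.653% of all genes. The list's median log2 fold change was -2.86 against -0.00 over all genes tested. In bulk RNA, fewer cells of a type and less RNA per cell cannot be told apart.

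**Figure D1:**
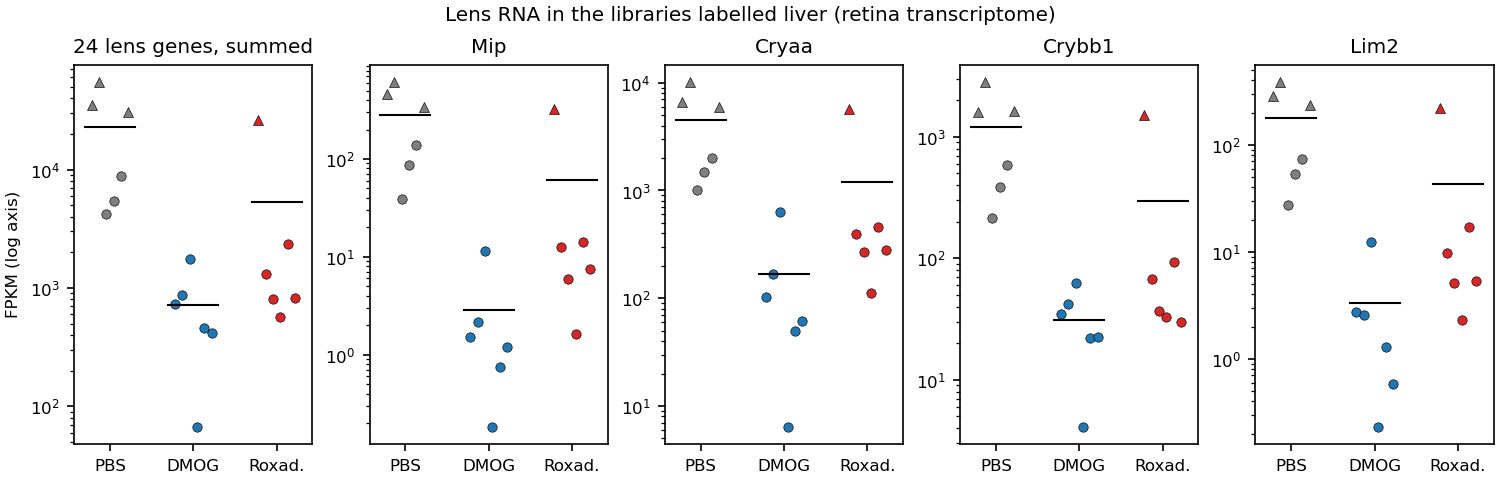
Levels of lens genes (FPKM, log axis) in the 18 retinal libraries labelled liver, 1 point per library, with a bar at the group mean. Triangles mark PBS replicates 1, 2 and 6 and roxadustat replicate 1, each above 20000 FPKM for the sum of the 24 lens genes. The other 5 roxadustat libraries lie below every PBS library in that sum.

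The lens level was then used to sort genes that follow lens RNA from genes that follow treatment. In a fit with the 3 treatment means and the mean log2 level of the 24 lens genes as a covariate, 120 of 13755 genes outside that list had a slope on the lens level (0.872%), all 120 positive. They included 9 of 13 genes that lens shares with other cells, such as Crygn, Crygs and Crybb2. Others, singled out after their values were seen, were the muscle phosphoglycerate mutase Pgam2, with a slope of 0.47 log2 units per log2 unit of lens level (adjusted p = 0.00023), the heme oxygenase Hmox1 (0.58, adjusted p = 0.00084), the calcium-binding protein S100a4 (0.45, adjusted p = 0.0018) and the glucagon gene Gcg (0.57, adjusted p = 0.0038). Where these genes are named below, their values with the lens covariate stand beside them.

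Roxadustat against PBS called 323 of 13779 genes at an adjusted p under 0.05 (limma, Benjamini-Hochberg, 2.34%). Of these 233 were higher (1.69%) and 90 lower (0.653%). At an unadjusted p under 0.05 there were 2409 (17.5%). None of the 233 higher genes was in a lens list or had a lens slope. Of the 90 lower genes, 6 were in the lens lists and 5 of the other 84 had a lens slope: Gcg, S100a4, Gpd1, Ipo5 and Ivns1abp. The split between directions depended on the scaling. Of the called genes 72.1% were higher as deposited, 70.2% with an equal total and 71.5% with scaling by the median ratio to each gene's mean. With each library set to an equal total outside the lens lists, 177 genes were higher and 649 lower. That is 21.4% higher, with a median over all genes of -0.08. This total includes Rpph1 and Rmrp, whose mean share was 14.1% in PBS and 17.9% in roxadustat libraries. Their part in the split was not tested.

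With the lens level as a covariate, 107 genes were called (0.777%), 92 higher (0.668%) and 15 lower (0.109%). Of the 233 higher genes 90 were among them, and of the 90 lower genes 13. The values moved little. The median log2 fold change of the 233 was 0.45 without and 0.42 with the covariate, that of the 84 lower genes outside the lens lists was -0.29 both times, and all 323 kept their sign. The median standard error over all genes rose from 0.0727 to 0.0919. Without the 4 libraries with the most lens RNA, an alternative chosen after seeing the data, 245 genes were called (1.78%), 177 higher (1.28%) and 68 lower (0.494%). They held 141 of the 233 and 37 of the 90, and all 323 again kept their sign. Both accounts together with the full comparison left 88 genes called higher and 11 called lower. The 11 were Vcam1, Chrna5, Psd2, Plekhg3, Ppm1e, Kifc3, Ntm, Klhl23, Ttll3, Ankrd6 and Dscam.

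**Figure D2:**
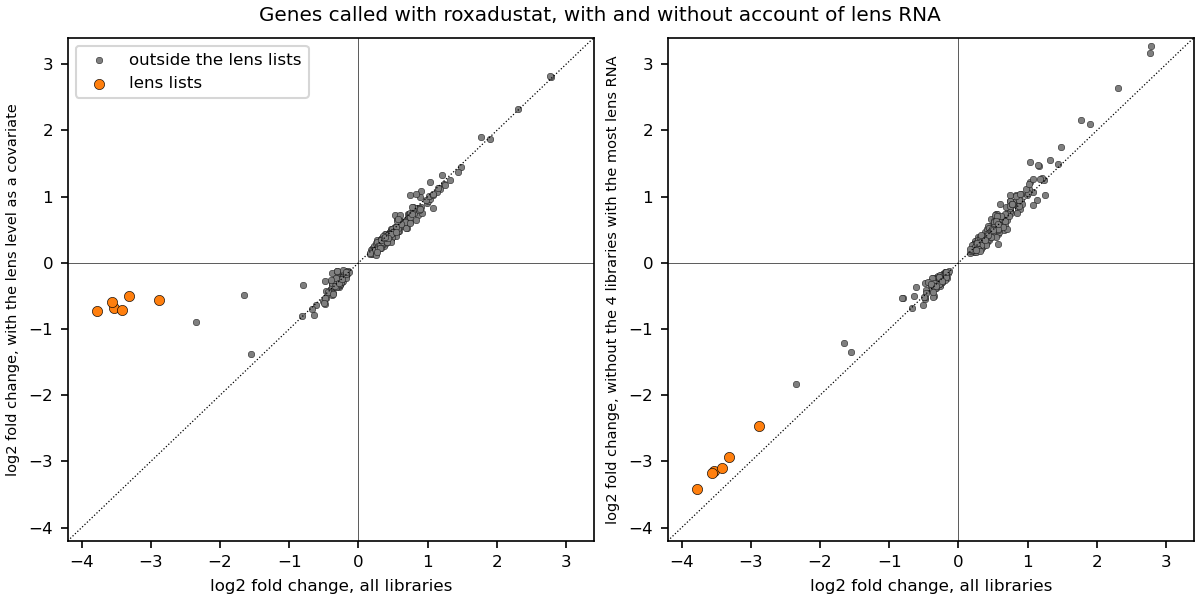
Log2 fold change (roxadustat versus PBS, FPKM + 0.5) of the 323 called genes over all libraries (horizontal) against the same value with the lens level as a covariate (left) or without the 4 libraries with the most lens RNA (right). The 6 genes of the lens lists (orange) lie between -3.78 (Mip) and -2.88 (Grifin) over all libraries. With the covariate they lie between -0.73 (Mip) and -0.50 (Crybb1). Mip, Cryba4, Crybb1 and Grifin are themselves part of the covariate, so their smaller values there were built in and test nothing. Genes called higher lie near the dotted line of equal values in both panels.

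Lens RNA was not the only level that moved with treatment. Genes of blood cells summed to 30.6 to 59.4 FPKM in PBS, 34.8 to 96.9 FPKM in roxadustat and 57.7 to 91.8 FPKM in DMOG libraries. Of 7 tested members 2 were called higher, the neutrophil gene S100a8 and the globin Hbb-b1, against 1.69% of all genes. None of the 7 was called with the lens covariate or without the lens-rich libraries. The list's median log2 fold change was 0.89, and 0.99 and 0.81 under these lens accounts. With the mean blood level as a covariate, 68 of the 233 higher genes and 1 of the 90 lower genes, Vcam1, were called, and the median standard error was 0.113. The sizes shrank too. The median log2 fold change of the 233 went from 0.45 to 0.38, and that of the 84 lower genes outside the lens lists from -0.29 to -0.21. The part of blood RNA in the other calls was not tested. Where the lens or the blood covariate ended the call of a gene described below, this is given with the gene.

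Among the oxygen sensors themselves, the data show a rise of the main HIF prolyl hydroxylase and a small fall of HIF-1 alpha mRNA. Egln1 had 22.9, 23.6 and 25.0 FPKM in PBS and 40.0, 44.3 and 52.6 FPKM in roxadustat libraries. All 6 roxadustat libraries lay above all 6 PBS libraries, and the log2 fold change was 0.91 ± 0.07 (adjusted p = 1.2e-07). It was 0.84 with the lens covariate (adjusted p = 2.2e-05) and 0.93 without the 4 lens-rich libraries (adjusted p = 3.4e-05). Egln2 had 22.4 to 28.9 FPKM in PBS and 25.8 to 29.8 FPKM with roxadustat (log2 fold change 0.15 ± 0.05, adjusted p = 0.14). Egln3, which HIF is known to induce in many tissues, had 1.04 to 2.14 FPKM and 1.61 to 2.62 FPKM (0.36 ± 0.14, adjusted p = 0.18). Neither of these sister enzymes passed the test.

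Hif1a had 283, 290 and 300 FPKM in PBS and 216, 242 and 280 FPKM in roxadustat libraries, so that each roxadustat library lay below each PBS library. It fell by 0.24 ± 0.05 on the log2 scale (adjusted p = 0.018). Its value was -0.22 with the lens covariate (adjusted p = 0.23) and -0.25 without the lens-rich libraries (adjusted p = 0.12), so the call was lost and the size was not. With the blood covariate its value was -0.15, also without a call. Leaving out 1 library at a time raised its adjusted p to at most 0.055. Epas1, which encodes HIF-2 alpha, had 4.47 to 7.37 FPKM against 3.76 to 6.26 FPKM (-0.18 ± 0.11, adjusted p = 0.45), and Arnt 6.60 to 9.49 FPKM against 7.98 to 10.2 FPKM (0.07 ± 0.07, adjusted p = 0.66). Hif1an, the asparaginyl hydroxylase that blocks HIF's activation domain, had 15.8 to 17.7 FPKM and 15.1 to 18.1 FPKM (0.01 ± 0.05, adjusted p = 0.94). Vhl rose by a log2 fold change of 0.16 ± 0.03 (33.6 to 37.7 FPKM in PBS, 37.0 to 40.9 FPKM with roxadustat, adjusted p = 0.013), as did Siah2, a ligase for the hydroxylases (0.19 ± 0.05, adjusted p = 0.044). Both calls were lost with the lens covariate (adjusted p = 0.21 for Vhl and 0.29 for Siah2) and with the blood covariate (adjusted p = 0.56 for Vhl, 0.999 for Siah2). Of 17 tested genes of the pathway, 3 rose and 1 fell, against 1.69% and 0.653% of all genes, and the median was 0.07.

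Known HIF targets rose as a group. Of 47 tested members of a list of 49, 29 were called higher and none lower, against 1.69% and 0.653% of all genes. The median log2 fold change was 0.52 against -0.00 over all genes. In 24 of them each roxadustat library lay above each PBS library, against 1.44% of all genes. With the lens covariate 21 were called and the median was 0.61, and without the lens-rich libraries 26 were called and the median was 0.62. With the blood covariate 20 were called. Among the 6 roxadustat libraries, replicate 2 was the lowest for 15 of the 29 and the lens-rich replicate 1 for 9.

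Of the HIF targets tested, Slc16a3, the lactate exporter MCT4, rose most. It had 4.28, 9.26 and 13.7 FPKM in PBS and 45.9, 53.5 and 82.0 FPKM in roxadustat libraries, with a wide gap between the groups. Its log2 fold change was 2.76 ± 0.24 (adjusted p = 1.1e-06), 2.83 with the lens covariate and 3.16 without the lens-rich libraries. Ak4, a mitochondrial adenylate kinase, had 1.56, 3.36 and 5.25 FPKM against 12.9, 17.9 and 23.0 FPKM, also without overlap (2.30 ± 0.25, adjusted p = 1.2e-05). Bnip3, a receptor for the removal of mitochondria, had 48.7, 75.0 and 91.6 FPKM against 112, 172 and 214 FPKM (1.16 ± 0.17, adjusted p = 0.00045), and its relative Bnip3l rose by 0.45 ± 0.06. Ankrd37 had 16.2, 20.9 and 26.2 FPKM against 36.2, 43.4 and 48.3 FPKM (1.00 ± 0.11, adjusted p = 1.1e-05), and Ankzf1 had 6.72 to 7.99 FPKM against 11.8 to 16.0 FPKM (0.87 ± 0.08, adjusted p = 1.1e-06). The groups were apart for both. Ddit4, an inhibitor of mTORC1 signalling, rose by 0.86 ± 0.09, and Fam162a by 0.92 ± 0.09. All of these stayed called with the lens covariate, without the lens-rich libraries and with the blood covariate.

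Vegfa, the growth factor of vessels whose excess drives the later phase of the disease, had 16.0, 24.2 and 33.4 FPKM in PBS and 31.1, 40.7 and 54.0 FPKM in roxadustat libraries. The groups overlapped in range. Its log2 fold change was 0.78 ± 0.17 (adjusted p = 0.018), 0.74 with the lens covariate (adjusted p = 0.19) and 0.89 without the lens-rich libraries (adjusted p = 0.062). With the blood covariate it was 0.99 (adjusted p = 0.23), so that each of these accounts ended the call. Leaving out 1 library at a time raised the adjusted p to at most 0.054. Adm, the vascular peptide adrenomedullin, had 0.849 to 2.58 FPKM against 1.86 to 3.61 FPKM (0.50 ± 0.26, adjusted p = 0.33). Epo, the classical HIF target, was below the level filter: it had at most 0.395 FPKM in PBS and 0.403 FPKM in roxadustat libraries. Car9, a carbonic anhydrase that HIF-1 induces in many cells, was below it too, with 0.0424, 0.259 and 0.334 FPKM against 0.284, 0.788 and 1.32 FPKM, and was not tested.

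The targets that did not pass included widely used ones. Ndrg1 had a log2 fold change of 0.20, Bhlhe40 of 0.20, Pfkfb4 of 0.12 and Slc2a3 of 0.11. Hmox1 had -0.85 ± 0.52 (adjusted p = 0.42) and is one of the genes with a lens slope: with the lens covariate its value was 0.65 (adjusted p = 0.52). A HIF list is a union over tissues, and these members were above the level filter in the retinal libraries.

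The promoter sequences of a few members are shown because HIF binds a short core with the letters ACGTG. The windows are those of RefSeq, build GRCm38.p6, and run along the gene's strand from 250 bases before to 50 bases after the transcript start. The deposited values used another build, mm9, so the windows carry no measurement. Capitals mark every match to ACGTG or GCGTG on either strand, CACGT and CACGC being their reverse complements. CACGTG holds ACGTG on both strands and counts as 2 matches. The first 4 genes are HIF targets that rose and that hold ACGTG in the window shown, which not all that rose do. The last 2 are the genes outside the list with the largest rises.
Ldha, chr7:46845554-46845853, plus strand: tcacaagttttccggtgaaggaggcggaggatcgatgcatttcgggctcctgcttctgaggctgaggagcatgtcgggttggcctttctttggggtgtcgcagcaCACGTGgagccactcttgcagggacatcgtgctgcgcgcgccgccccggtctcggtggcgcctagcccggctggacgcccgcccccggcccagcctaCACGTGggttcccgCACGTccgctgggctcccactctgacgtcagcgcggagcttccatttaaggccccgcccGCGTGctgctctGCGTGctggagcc
Slc16a3, chr11:120948817-120949116, plus strand: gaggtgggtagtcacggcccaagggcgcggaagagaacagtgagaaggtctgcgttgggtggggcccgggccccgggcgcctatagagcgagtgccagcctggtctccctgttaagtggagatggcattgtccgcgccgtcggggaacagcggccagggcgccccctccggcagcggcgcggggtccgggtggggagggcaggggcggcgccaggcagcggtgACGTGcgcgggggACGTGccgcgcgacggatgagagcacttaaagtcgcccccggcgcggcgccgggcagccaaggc
Ankrd37, chr8:45999801-46000100, minus strand: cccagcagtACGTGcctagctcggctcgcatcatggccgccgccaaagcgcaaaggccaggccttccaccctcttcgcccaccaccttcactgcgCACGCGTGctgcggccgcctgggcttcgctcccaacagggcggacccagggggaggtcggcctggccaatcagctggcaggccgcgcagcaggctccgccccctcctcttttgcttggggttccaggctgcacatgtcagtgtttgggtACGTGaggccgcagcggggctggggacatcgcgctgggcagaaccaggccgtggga
Egln1, chr8:124949205-124949504, minus strand: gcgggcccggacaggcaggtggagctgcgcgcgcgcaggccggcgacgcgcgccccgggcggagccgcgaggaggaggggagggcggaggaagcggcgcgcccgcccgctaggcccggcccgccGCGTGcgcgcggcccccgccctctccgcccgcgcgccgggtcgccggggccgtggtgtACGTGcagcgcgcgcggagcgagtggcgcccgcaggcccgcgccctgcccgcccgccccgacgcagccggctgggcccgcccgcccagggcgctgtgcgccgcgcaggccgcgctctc
Grhpr, chr4:44981144-44981443, plus strand: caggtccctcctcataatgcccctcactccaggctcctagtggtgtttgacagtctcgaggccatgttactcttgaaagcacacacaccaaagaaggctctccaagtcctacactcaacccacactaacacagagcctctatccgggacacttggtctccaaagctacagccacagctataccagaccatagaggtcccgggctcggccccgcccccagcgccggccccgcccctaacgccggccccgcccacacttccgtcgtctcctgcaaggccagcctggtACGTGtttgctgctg
Dio3, chr12:110278980-110279279, plus strand: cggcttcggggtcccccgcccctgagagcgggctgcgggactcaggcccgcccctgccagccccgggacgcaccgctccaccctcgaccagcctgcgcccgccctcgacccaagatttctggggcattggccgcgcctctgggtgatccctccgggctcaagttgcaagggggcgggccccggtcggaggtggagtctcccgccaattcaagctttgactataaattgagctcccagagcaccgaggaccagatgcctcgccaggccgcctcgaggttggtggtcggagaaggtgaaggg

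Ldha had 5 matches to ACGTG in this window, Slc16a3 and Ankrd37 had 2 each, Egln1 and Grhpr 1 each and Dio3 had 0. Another window of Ldha, not shown, had 0. Of other HIF targets called higher, Pdk1 and Pfkl had 0 in every window, and Ak4 had 2 in a single window and 0 in its others. ACGTG was in 19.6% of all 32851 windows of the table and in 24.7% of the windows of genes tested. It was in 38.1% of windows of genes called higher, 90 of 236, and in 24.2% of windows of genes called lower, 24 of 99. Within the HIF list it was in 50% of windows of members called higher and 57.1% of windows of members that were not called. GCGTG was in 49.7% of windows of genes tested, 52.5% of those called higher and 39.4% of those called lower. Within the HIF list the shares for GCGTG were 63.2% for members called higher and 78.6% for members not called. A match describes these letters only.

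**Figure D3:**
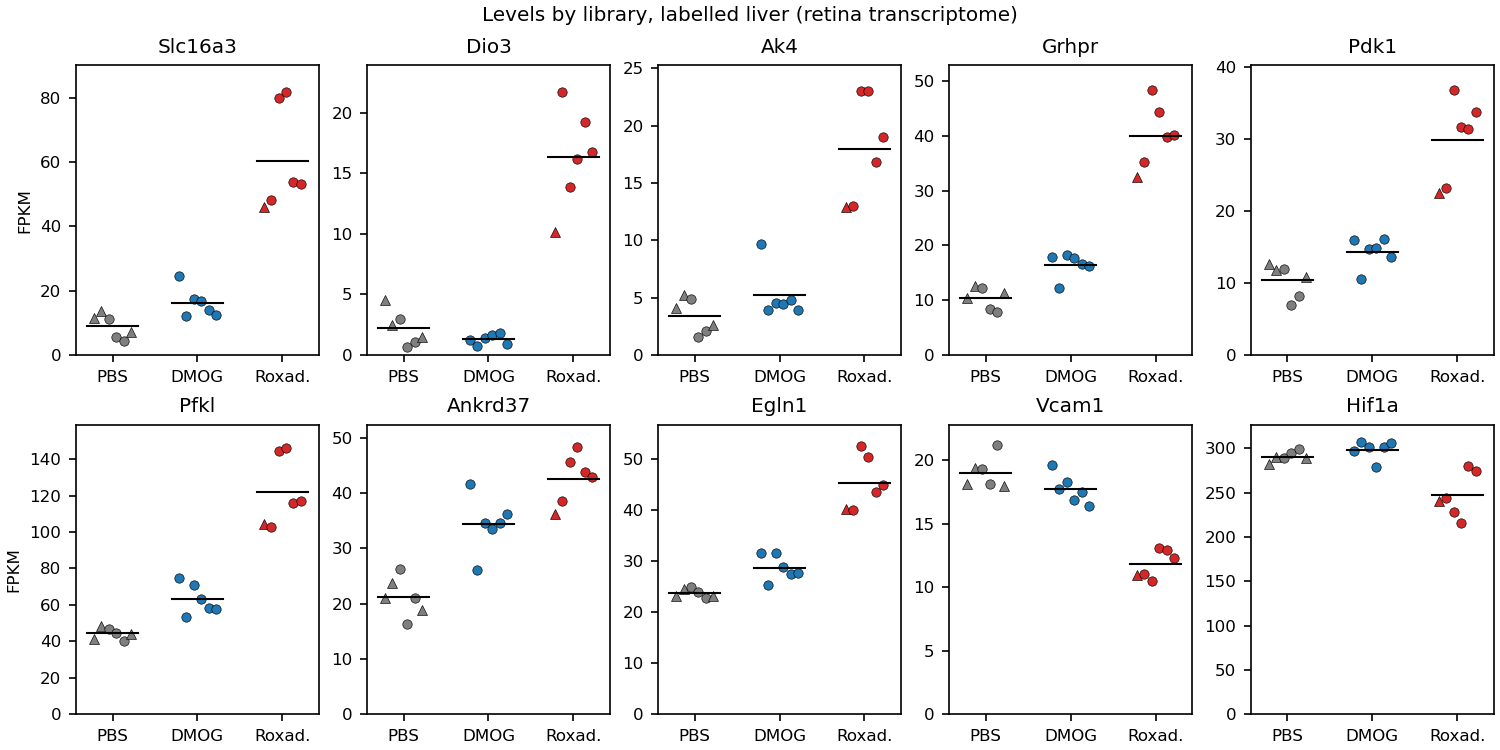
Levels (FPKM, axis from 0) of 10 genes in the 18 retinal libraries labelled liver, 1 point per library, with a bar at the group mean and triangles as in the plot of lens genes. For 8 of the 10 genes the 6 roxadustat libraries lie clear of both other groups, and for Ankrd37 and Hif1a clear of PBS alone. Roxadustat replicate 1, the lens-rich library of its group, is among the lowest for most of the genes that rose.

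In glycolysis, each step from the glucose transporter to the lactate exporter had a gene called higher with roxadustat. At hexokinase that gene was Hk2, whose call was lost under both lens accounts and with the blood covariate. Of 28 tested genes, 15 were called higher and none lower, against 1.69% and 0.653% of all genes, with a median of 0.54. In all 15 each roxadustat library lay above each PBS library, against 1.44% of all genes. Of the 15, Slc2a1, Hk2, Pfkl, Pgk1, Ldha, Slc16a3 and Pdk1 are also counted among the HIF targets above. With the lens covariate 14 were called, all but Hk2. Without the lens-rich libraries 15 were, with Pfkfb3 called and Hk2 not, and Pgam2 was called lower (-0.66, adjusted p = 0.041). With the blood covariate 14 were called, again all but Hk2. The members of the pathway, summed, had 5697 to 6835 FPKM in PBS and 9287 to 12101 FPKM in roxadustat libraries.

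By step, the glucose transporter Slc2a1 had 76.96, 111 and 126 FPKM in PBS and 144, 153 and 173 FPKM in roxadustat libraries (log2 fold change 0.55 ± 0.11, adjusted p = 0.0061). Hk2, the hexokinase 2 gene, whose product traps glucose as its phosphate, had 3.69, 4.80 and 5.51 FPKM against 5.56, 7.69 and 9.87 FPKM (0.66 ± 0.15, adjusted p = 0.024). Its call was lost with the lens covariate (0.61, adjusted p = 0.25), without the lens-rich libraries (0.65, adjusted p = 0.14) and with the blood covariate (adjusted p = 0.19). Phosphofructokinase, the committed step, has liver, platelet and muscle forms. Pfkl had 40.4, 44.4 and 48.5 FPKM against 103, 117 and 146 FPKM (1.44 ± 0.09, adjusted p = 3.7e-08), and Pfkp 18.7 to 28.1 FPKM against 33.8 to 56.4 FPKM (0.89 ± 0.13, adjusted p = 0.00036). Pfkm had 34.8 to 50.9 FPKM against 31.7 to 43.2 FPKM (-0.13 ± 0.09, adjusted p = 0.48). The liver form thus had about the level of the muscle form in PBS and passed it in each roxadustat library.

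The enzymes that follow act on the phosphofructokinase product and end in lactate. Aldoa, the aldolase A gene, had 756, 812 and 872 FPKM in PBS and 1439, 1515 and 2005 FPKM in roxadustat libraries (0.99 ± 0.08, adjusted p = 3.1e-07). Ldha, whose product makes lactate from pyruvate, had 817, 941 and 1024 FPKM against 1577, 1700 and 1839 FPKM (0.87 ± 0.06, adjusted p = 1.2e-07). Tpi1 rose by 1.08 ± 0.12, Pgk1 by 1.02 ± 0.11, Pgam1 by 0.98 ± 0.09, Gpi1 by 0.87 ± 0.08, Eno1 by 0.80 ± 0.10, Gapdh by 0.58 ± 0.06 and Pkm2 by 0.51 ± 0.06 on the log2 scale. Each step from glucose phosphate isomerase to pyruvate kinase thus had a member that rose.

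Where a step has several isozymes, the calls fell on 1 of them, or on both non-muscle forms of phosphofructokinase. Hk1 had a log2 fold change of 0.05 ± 0.13 beside 0.66 for Hk2, Aldoc 0.19 ± 0.13 beside 0.99 for Aldoa, and Eno2 -0.27 ± 0.10 beside 0.80 for Eno1. Ldhb had -0.09 ± 0.06 beside 0.87 for Ldha, and Slc16a1 0.17 ± 0.15 beside 2.76 for Slc16a3. The difference between isozymes of a step was not tested. Pgam2, with -1.20 ± 0.41 (adjusted p = 0.13), had a lens slope, and its value with the lens covariate was 0.02 (adjusted p = 0.99).

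Pyruvate dehydrogenase kinases inhibit pyruvate dehydrogenase, the mitochondrial enzyme that turns pyruvate into acetyl-CoA. Pdk1 had 6.95, 11.3 and 12.6 FPKM in PBS and 22.4, 31.6 and 36.8 FPKM in roxadustat libraries, without overlap (1.48 ± 0.15, adjusted p = 4.5e-06). Pdk2 had 0.22 ± 0.12 (adjusted p = 0.33) and Pdk3 0.15 ± 0.06 (adjusted p = 0.17). Among 32 genes of oxidative phosphorylation, 1 rose, Ndufa4l2, a paralog of a complex IV subunit that HIF-1 is known to induce (2.38 to 4.77 FPKM against 5.86 to 13.9 FPKM, 1.14 ± 0.20, adjusted p = 0.0032, and adjusted p = 0.053 with the lens and 0.26 with the blood covariate), against 1.69% of all genes. The list's median was -0.01, and its sum was 9807 to 10681 FPKM in PBS and 9863 to 10113 FPKM with roxadustat.

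**Figure D4:**
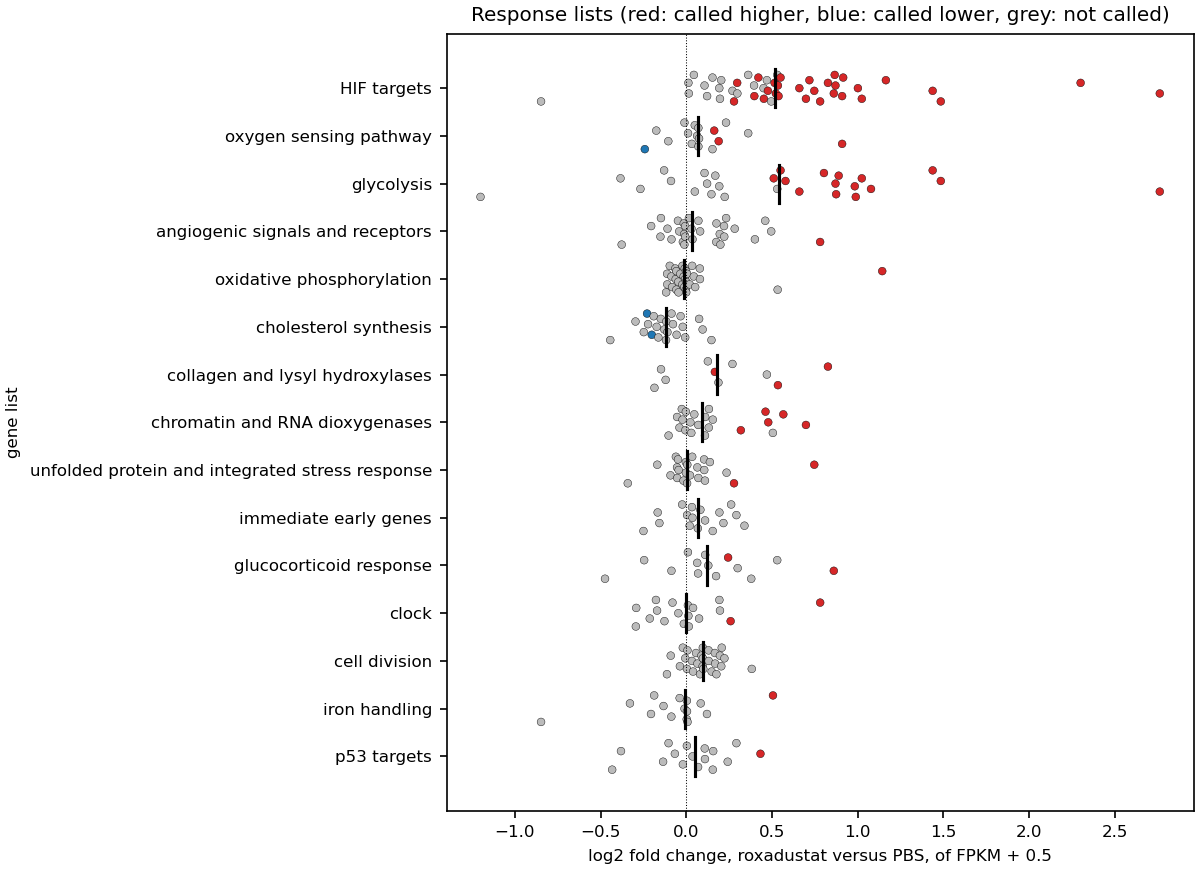
Log2 fold change (roxadustat versus PBS, FPKM + 0.5) of every tested member of the 15 response lists, 1 point per gene, with a bar at each list's median. The HIF targets (29 of 47 called higher) and glycolysis (15 of 28) have medians of 0.52 and 0.54, and the medians of the other 13 lists lie between -0.12 and 0.18. The lists of HIF targets and glycolysis share members.

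Genes of enzymes that use 2-oxoglutarate, the co-substrate with which both drugs compete, changed in part. Of 10 collagen and lysyl hydroxylase genes 3 rose, against 1.69% of all genes. P4ha1 and Plod2 are also in the list of HIF targets, and P4hb encodes the partner of the catalytic subunit P4ha1. P4ha1, the catalytic subunit of collagen prolyl hydroxylase, had 13.1, 18.3 and 22.9 FPKM in PBS and 27.2, 31.9 and 34.3 FPKM in roxadustat libraries (0.83 ± 0.12, adjusted p = 0.00022, and a log2 fold change of 1.03 with the lens covariate). The lysyl hydroxylase Plod2 rose by 0.53 ± 0.12 (adjusted p = 0.018, and adjusted p = 0.37 with the blood covariate), and P4hb, which is also a disulfide isomerase, by 0.17 ± 0.04 (adjusted p = 0.023). The call of P4hb was lost with the lens covariate (adjusted p = 0.30) and with the blood covariate (adjusted p = 0.71). Of 22 chromatin and RNA dioxygenases 5 rose, against 1.69% of all genes. Among these, Kdm3a is also in the list of HIF targets. The histone demethylase Kdm3a had 14.96, 17.97 and 18.5 FPKM against 24.9, 28.9 and 31.3 FPKM (0.70 ± 0.06, adjusted p = 1.3e-06). Jmjd6 rose by 0.57 ± 0.06, the demethylase Kdm4b by 0.48 ± 0.06 and the RNA demethylase Alkbh5 by 0.46 ± 0.05, and all 4 stayed called under both lens accounts and with the blood covariate. The fifth, Jhdm1d, rose by 0.32 ± 0.07 (adjusted p = 0.015, and adjusted p = 0.22 with the lens and 0.37 with the blood covariate). The Tet enzymes, which oxidise methylcytosine, had 0.02, 0.13 and 0.11 for Tet1, Tet2 and Tet3, and none passed.

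The largest rises outside these lists were in Dio3 and Grhpr. Dio3, the deiodinase that inactivates thyroid hormone, had 0.658, 1.97 and 4.55 FPKM in PBS and 10.1, 16.4 and 21.7 FPKM in roxadustat libraries, a clear gap (2.78 ± 0.28, adjusted p = 5.4e-06, and a log2 fold change of 2.81 with the lens covariate). Its neighbour on the opposite strand, Dio3os, had 0.994 to 2.30 FPKM against 2.25 to 4.35 FPKM (0.83 ± 0.16, adjusted p = 0.0058, and adjusted p = 0.19 with the lens and 0.10 with the blood covariate). The library kit keeps strand, but how strand entered the counting is not given in the sources used here, so reads of the pair may not be fully separate. Grhpr, glyoxylate and hydroxypyruvate reductase, had 7.89, 10.8 and 12.6 FPKM against 32.5, 40.0 and 48.4 FPKM (1.90 ± 0.12, adjusted p = 3.7e-08, and a log2 fold change of 1.86 with the lens covariate). It had the smallest adjusted p of the comparison, together with Pfkl.

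Other genes with large rises were of low level. Serpine3, a serine protease inhibitor gene, had 0.121 to 2.10 FPKM in PBS and 3.61 to 6.81 FPKM with roxadustat (1.76 ± 0.28, adjusted p = 0.00086). Csn3, the kappa casein gene, had 0.343 to 0.691 FPKM against 1.51 to 2.12 FPKM (1.20 ± 0.12, adjusted p = 5.4e-06). Dnahc9, an axonemal dynein heavy chain, had 0.655 to 1.11 FPKM against 2.13 to 3.14 FPKM (1.18 ± 0.11, adjusted p = 2.5e-06), and Tnfsf9, the ligand of the receptor 4-1BB, 1.69 to 3.08 FPKM against 5.21 to 7.08 FPKM (1.07 ± 0.11, adjusted p = 5.4e-06). The groups were apart for these 4 genes, and all 4 stayed called under both lens accounts and with the blood covariate. The scale of log2(FPKM + 0.5) understates the change of genes at this level. S100a8, at 0 to 0.377 FPKM in PBS and 0.212 to 2.48 FPKM with roxadustat (1.25 ± 0.28, adjusted p = 0.019), is a member of the blood list, and its call was lost with the lens covariate (adjusted p = 0.21) and with the blood covariate (adjusted p = 0.999). The blood covariate includes S100a8 itself, so nothing is read from the second loss.

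Of the genes that fell, Vcam1 stood under every account of lens and blood. Vcam1, a cell adhesion molecule of the immunoglobulin family, had 17.9, 18.7 and 21.2 FPKM in PBS and 10.5, 11.7 and 13.1 FPKM in roxadustat libraries, without overlap. It fell by 0.67 ± 0.06 on the log2 scale (adjusted p = 1.3e-06), with -0.69 both with the lens covariate (adjusted p = 9.1e-05) and without the lens-rich libraries (adjusted p = 0.00016), and its adjusted p with the blood covariate was 0.0043. Chrna5, a nicotinic receptor subunit, had 5.24, 6.15 and 8.04 FPKM against 3.59, 4.32 and 5.00 FPKM, each roxadustat library below each PBS library (-0.51 ± 0.09, adjusted p = 0.0046, and adjusted p = 0.025 with the lens covariate). Plekhg3 had 5.37 to 6.41 FPKM against 3.61 to 4.94 FPKM (-0.46 ± 0.07, adjusted p = 0.0010), and Psd2 12.9 to 17.8 FPKM against 9.60 to 13.0 FPKM (-0.49 ± 0.09, adjusted p = 0.0050). Me1, cytosolic malic enzyme, had 31.4, 33.0 and 36.2 FPKM against 22.5, 25.1 and 29.2 FPKM (-0.40 ± 0.07, adjusted p = 0.0016, and adjusted p = 0.057 without the lens-rich libraries). With the blood covariate the calls of these 4 genes were lost: Chrna5 had -0.60 (adjusted p = 0.12), Plekhg3 -0.23 (adjusted p = 0.93), Psd2 -0.30 and Me1 -0.17 (adjusted p = 0.999 for both).

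The other large falls moved with lens RNA or lost their call. Gcg had 0.375, 5.08 and 8.59 FPKM in PBS and 0.0362, 0.0833 and 3.86 FPKM in roxadustat libraries, the highest being replicate 1, the library rich in lens RNA. Its log2 fold change was -2.35 ± 0.54 (adjusted p = 0.022) and -0.89 with the lens covariate (adjusted p = 0.45). Gpd1, a glycerol phosphate dehydrogenase, went from -0.80 ± 0.18 (adjusted p = 0.018) to -0.33 with the covariate (adjusted p = 0.41). The calls of Kcng4 (-0.65), Rgs6 (-0.61), Adra2c (-0.49), Loxl4 (-0.49), Col5a3 (-0.48), Rassf5 (-0.44) and Spnb3 (-0.40) were also lost with the lens covariate, and all kept their sign. None of these 9 genes was called with the blood covariate by limma at the adjusted threshold.

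Other response lists held few calls. The counts in this paragraph stand against 1.69% of all genes called higher and 0.653% lower, and 1 call in a list of this size is near that share, so that nothing is read from it about the list. Among 31 angiogenic signals and receptors Vegfa alone passed, and the list's median was 0.03. The receptors Kdr and Flt1 both had -0.01, Angpt2 0.08 and Dll4 0.40 (adjusted p = 0.075). Of 23 cholesterol synthesis genes 2 fell, Fdps by 0.20 ± 0.04 and Fdft1 by 0.23 ± 0.06, with a list median of -0.12, and neither stayed called with the lens covariate (adjusted p = 0.22 and 0.38) or the blood covariate (adjusted p = 0.12 and 0.999). Of 15 iron handling genes the transferrin receptor Tfrc rose by 0.51 ± 0.08 (adjusted p = 0.0013, and adjusted p = 0.051 with the lens and 0.013 with the blood covariate). In the glucocorticoid response list 2 of 14 rose, Ddit4, which is also a HIF target, and Errfi1 (0.24 ± 0.06, adjusted p = 0.045, and adjusted p = 0.29 with the lens and 0.42 with the blood covariate). In the unfolded protein list 2 of 24 rose, Vldlr and Stc2, both of which are HIF targets too and neither of which stayed called with the lens or the blood covariate. Of 16 p53 targets Sesn1 alone rose (0.43 ± 0.06, adjusted p = 0.00024, and adjusted p = 0.10 with the blood covariate), and Cdkn1a had 0.07. Of 18 clock genes 2 rose, Gm129 (0.78 ± 0.16) and Nfil3 (0.26 ± 0.06), again not with the lens or the blood covariate. None of 17 immediate early genes or 28 cell division genes was called, by limma at the adjusted threshold, in either direction.

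Retinal cell type lists held few calls. Over all genes 2.34% were called, a share at which lists of this size would hold about 0 or 1. Of 24 rod genes none was called, and their sum was 13100 to 19542 FPKM in PBS and 14071 to 17905 FPKM with roxadustat. The same held, with no call in either direction, for 19 bipolar, 8 horizontal, 20 ganglion, 8 astrocyte, 19 endothelial, 8 pericyte and 16 microglial genes. The lists' medians ran from -0.20 for ganglion cells to 0.06 for cones. For the ganglion cell list the sum was 826, 882 and 1661 FPKM (lowest, median, highest) in PBS and 691, 879 and 993 FPKM with roxadustat. The medians were thus close. The lowest member was the neurofilament gene Nefh (-0.57 ± 0.17, adjusted p = 0.084). Ganglion and amacrine genes lay mostly below 0: 2 of 20 ganglion genes and 3 of 17 amacrine genes had values above 0, with medians of -0.20 and -0.16. The medians were -0.17 and -0.14 with the lens covariate, and -0.00 and -0.01 without the lens-rich libraries. The part of lens RNA in them was not tested.

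Of 14 cone genes 3 rose, against 1.69% of all genes. Thrb, a thyroid hormone receptor that sets cone opsin identity, had 14.6, 19.7 and 21.3 FPKM in PBS and 24.3, 26.4 and 30.8 FPKM in roxadustat libraries, without overlap (0.47 ± 0.07, adjusted p = 0.00083, and adjusted p = 0.030 with the lens and 0.011 with the blood covariate). Opn1sw, the short-wave cone opsin, had 119, 129 and 147 FPKM against 154, 176 and 201 FPKM, also without overlap (0.45 ± 0.09, adjusted p = 0.0076, and adjusted p = 0.11 with the lens and 0.94 with the blood covariate). Kcne2, a potassium channel subunit, rose by 0.58 ± 0.12 (adjusted p = 0.015, and adjusted p = 0.24 with the lens and 0.11 with the blood covariate). Crym, a thyroid hormone binding protein placed in the Mueller glia list, was its 1 called member of 23 (211 to 286 FPKM against 313 to 416 FPKM, 0.47 ± 0.08, adjusted p = 0.0034, and adjusted p = 0.14 with the lens and 0.97 with the blood covariate). Of 17 amacrine genes the neuropeptide gene Npy alone rose (0.39 ± 0.10, adjusted p = 0.040, and adjusted p = 0.39 with the lens and 0.999 with the blood covariate).

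None of the tested markers of other tissues was called outside lens and blood, by limma at the adjusted threshold. The sclera and fibroblast list summed to 23.1 to 64.3 FPKM in PBS and 25.2 to 36.2 FPKM with roxadustat, and its median of -0.37 over 8 genes included Ogn (-0.95) and Dcn (-0.88). Dcn was very uneven among PBS libraries, with a mean of 2.79 and a standard deviation of 5.31 FPKM. With roxadustat these were 0.418 and 0.124 FPKM. Ogn had a lens slope, and with the lens covariate its value was 0.12, that of Dcn -0.97 and the list's median -0.32. The pigment epithelium list summed to 98.0 to 301 FPKM and 160 to 270 FPKM. Of 14 cornea genes 2 passed the level filter, and the list summed to 6.78 to 11.4 FPKM in PBS and 5.49 to 7.68 FPKM with roxadustat. Their part in the results was not tested.

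**Figure D5:**
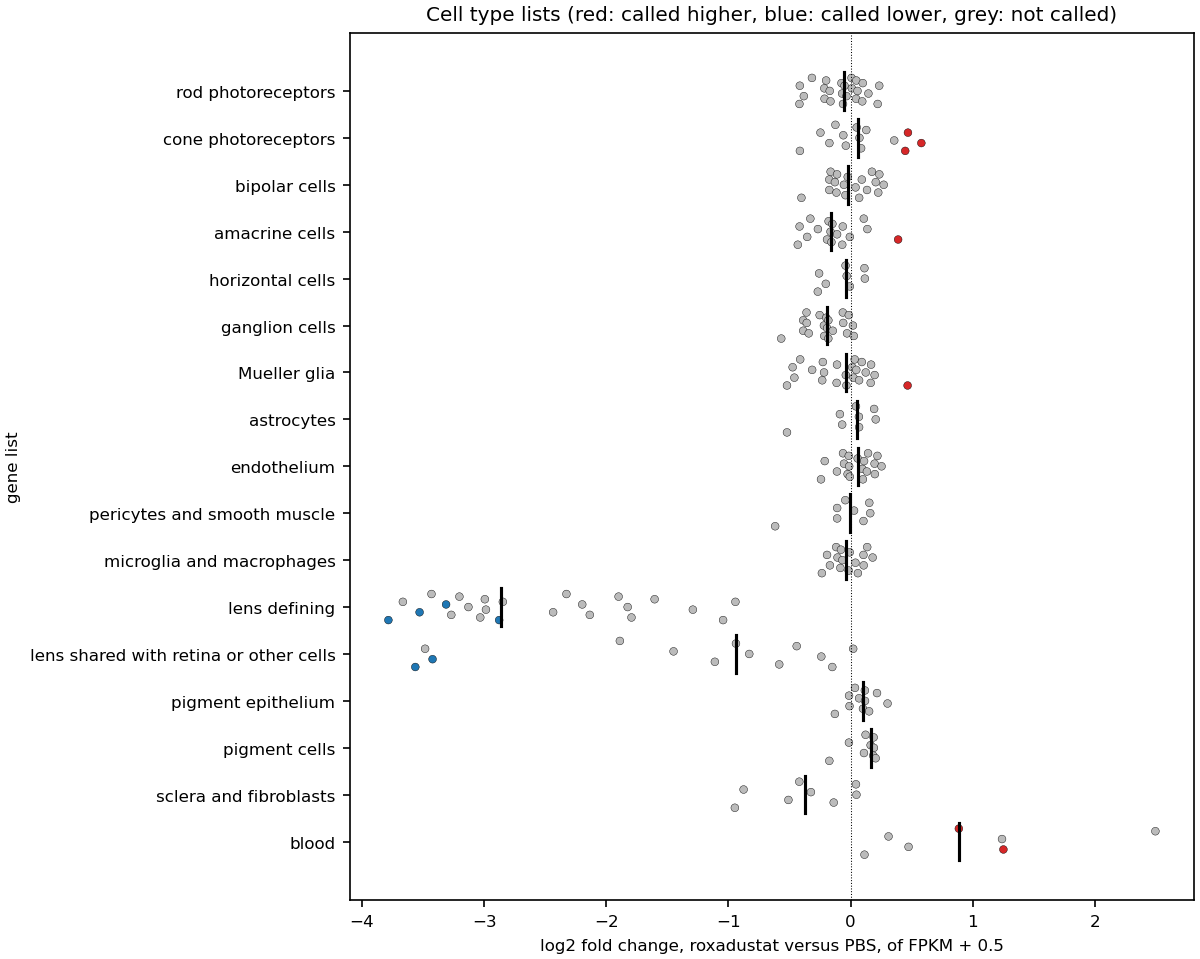
Log2 fold change (roxadustat versus PBS, FPKM + 0.5) of every tested member of the cell type lists with at least 7 tested genes, 1 point per gene, with a bar at the median. The medians of the retinal cell lists lie between -0.20 and 0.06, that of the lens genes at -2.86 and that of the blood genes at 0.89.

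Roxadustat was also set against DMOG in the same fit, which shares its roxadustat libraries with the comparison above. It called 181 genes (1.31%), 135 higher with roxadustat (0.98%) and 46 lower (0.334%). Of the 47 HIF targets 22 were higher than with DMOG and none lower, with a median of 0.41, and of 28 glycolysis genes 13 were higher, with a median of 0.44. Slc16a3 had 12.2, 15.4 and 24.6 FPKM in DMOG libraries, and was higher with roxadustat by 1.87 (adjusted p = 0.00020). DMOG replicates 2 and 6 lay within the PBS range for this gene, and all DMOG libraries lay below all roxadustat libraries. Ak4 was higher by 1.72 (adjusted p = 0.00067), Pdk1 by 1.03, Pfkl by 0.94 and Egln1 by 0.64 (adjusted p = 1.9e-05). Dio3 had 0.723, 1.34 and 1.79 FPKM with DMOG, within the PBS range, and was higher with roxadustat by 3.23 (adjusted p = 2.3e-06). Dnahc9 was higher by 1.26 and Cox8b, a muscle-type complex IV subunit, by 1.73. Ankrd37 had 26.1 to 41.6 FPKM with DMOG, and its difference of 0.31 did not pass (adjusted p = 0.25).

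Among genes lower with roxadustat than with DMOG, Vcam1 had 16.4, 17.6 and 19.6 FPKM in DMOG libraries and a difference of -0.57 (adjusted p = 2.1e-05), Lrp4 -0.57, Col5a3 -0.55, Sema7a -0.54 and Nipal1 -0.53. Hif1a had 279 to 307 FPKM with DMOG, above all but the highest roxadustat library, and a difference of -0.28 (adjusted p = 0.0084). Doses are not given in the labels, so the drugs cannot be placed at matched doses, and these values stand side by side. Lens RNA was low in both drug groups save roxadustat replicate 1.

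The response in the retinal libraries was last compared with that in the liver transcriptome (libraries labelled retina), by a test of the difference over 11101 genes that passed the filter in both tables. It called 249 genes (2.24%), 114 with the higher response in the retinal libraries (1.03%) and 135 with the lower (1.22%). Grhpr had a response of 1.90 in the retinal libraries and 0.12 in the liver transcriptome, a difference of 1.77 (adjusted p = 2.5e-07). Ak4 had 2.30 and 0.73, a difference of 1.57 (adjusted p = 0.0047). Cdkn1a, a cell cycle inhibitor, had 0.07 and 2.07, a difference of -2.0 (adjusted p = 0.00018). Vcam1 had -0.67 and -0.20, a difference of -0.47 (adjusted p = 0.047).

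None of 27 glycolysis genes differed in response between the tissues at the adjusted threshold of limma, and 3 of 46 HIF targets did. Among them, Ak4 responded more in the retinal libraries and Higd1a less. Higd1a, a mitochondrial protein, had 0.42 and 1.19 (difference -0.77, adjusted p = 0.031). Slc16a3 had 2.76 and 2.57, a difference of 0.19 (adjusted p = 0.88), and Egln1 0.91 and 1.12 (difference -0.21, adjusted p = 0.64). A difference that misses the threshold does not show equal responses. Of 23 cholesterol synthesis genes, 7 had a higher and 1 a lower response in the retinal libraries. Sc4mol, a sterol oxidase, had -0.11 and -1.25 (difference 1.14, adjusted p = 0.019).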

How the data were processed

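The values are FPKM per gene and library, as deposited by the authors, 1 column per library. Per the labels' protocols, RNA was extracted with RNeasy and made into libraries with a stranded total RNA kit after ribosomal RNA depletion. Per the submitters' processing notes the tools were bcl2fastq 1.8.3, TopHat2 (version 2) and Cuffdiff 2.2.1 on the mouse build mm9. The annotation and the scaling between libraries are not given in the sources used here. No read counts are in the table, so no counting intervals are given.

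From these, log2(FPKM + 0.5) was fitted as 3 group means over the 18 libraries labelled liver with limma 3.58.1 (statmod 1.5.0, R 4.3.3), with empirical Bayes, a mean trend and 15 residual degrees of freedom, for genes whose mean level reached 0.5 FPKM. Tests were two-sided, and p-values were adjusted over the whole table by the method of Benjamini and Hochberg, with a threshold of 0.05. The difference between tissue labels was fitted over all 36 libraries. The script was tested on simulated data. Figures were drawn with Python 3.11.15, pandas 2.3.3 and matplotlib 3.10.9. Of the genes in the table, 25 carry spreadsheet dates for symbols. No library pair was identical.

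The genes named were up to 15 highest and 15 lowest called log2 fold changes outside the lens lists (reaching a mean of 1 FPKM in PBS or roxadustat, with all 6 roxadustat libraries above or all 6 below the PBS mean, unnamed and small RNAs passed over), 15 genes of the oxygen response in every case, up to 4 members per list with the smallest p, and 5 and 5 for each other comparison. Further list members were named to cover the steps of a pathway, after their values were seen. The members and the 35 lists were chosen with earlier results of these data known, so lists are described by counts and medians and given no test. Alternatives were other pseudocounts (0.1 and 1), filters, scalings, covariates (lens, blood, sex), 12 libraries alone, array weights, robust fitting, a replicate block and leaving out each library. Results for a few genes are not reported here.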

Additional observations from a re-analysis of the deposited data

Results flagged for a closer look

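In 6 of 86 groups of 6 libraries of named genes, 1 library lay far from the other 5 by Dixon's test, where chance gives about 1 in 20. Serpine3 was lowest in PBS replicate 5, at 0.121 FPKM. Gcg was highest among roxadustat libraries in replicate 1, at 3.86 FPKM, and so was Gpd1, at 1.64 FPKM: this is the roxadustat library rich in lens RNA, and both genes had a slope on the lens level. Loxl4 was highest in roxadustat replicate 6, at 1.29 FPKM. Spnb3 was highest, at 25.4 FPKM, and Arnt lowest, at 6.60 FPKM, in PBS replicate 1, a lens-rich library.

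For several named genes the response to roxadustat differed between the retinal libraries (labelled liver) and the liver transcriptome (labelled retina), by a limma test of that difference. The response was higher in the retinal libraries for Grhpr (1.77 on the log2 scale), Dio3os (1.77), Ak4 (1.57), Igfbp3 (1.21) and Sc4mol (1.14). It was lower for S100a4 (-2.01), Cdkn1a (-2.0), A2m (-1.98) and Efna1 (-1.93). These values are differences between tissues. Within the retinal libraries Igfbp3 (0.23), Sc4mol (-0.11), Cdkn1a (0.07), A2m (0.34) and Efna1 (0.04) were not called. S100a4 had a lens slope in the retinal libraries, and its roxadustat value there was -1.65 without and -0.49 with the lens covariate.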

How the results depend on the processing

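The count of 323 called genes became 107 with the lens covariate, 69 with the blood covariate, 190 with the 12 PBS and roxadustat libraries alone, 512 with array weights and 826 with an equal total outside the lens lists. It was 50 with the lens covariate and without the 4 lens-rich libraries. Leaving out 1 library at a time gave 211 to 481, with 211 both without roxadustat replicate 2 and without roxadustat replicate 3. Genes with a lens slope numbered 69 instead of 120 when the summed lens level was used. Same-numbered libraries did not deviate together (correlations of -0.224 to 0.122, with replicate 4 alone closest to its own number), and a fit with the replicate block called 340. Of 36 called named genes, 14 stayed called in every alternative run, and none changed sign. Calls were lost for 16 with the lens covariate, 20 with the blood covariate and 22 with both lens accounts. Of all 233 genes called higher 39, and of the 90 lower 1, Vcam1, stayed called in every alternative other than the filter at 5 FPKM. The cause of these losses was not tested.

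Uncalled values near 0 changed sign. Hif1an had -0.0174 with an equal total, -0.0695 with an equal total outside the lens lists, -0.000894 with array weights, -0.0277 without the lens-rich libraries, -0.0183 with the lens covariate besides, and -0.0115 to 0.0385 with 1 library left out. Arnt had -0.00703 with an equal total outside the lens lists, -0.0518 without the lens-rich libraries, -0.0204 with the covariate besides, and -0.00161 to 0.105 with 1 library left out. Epas1 had 0.11 with the blood covariate, and Adm -0.36 with the lens covariate and without the lens-rich libraries. Without read counts, the depth behind low levels is known only relative to other libraries.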

Other observations

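Histone genes with symbols that start with Hist, a set chosen after its values were seen, moved together in the retinal libraries. These genes encode the histones made for DNA replication, and their mRNAs mostly lack poly(A) tails, so that total RNA libraries capture them. Of 56 tested, 18 were called higher with roxadustat and none lower, against 1.69% and 0.653% of all genes, 55 had values above 0 and the median log2 fold change was 0.54. Hist1h4j had 25.1, 33.0 and 43.6 FPKM (lowest, median, highest) in PBS and 46.8, 60.6 and 65.0 FPKM in roxadustat libraries, without overlap (0.85 ± 0.13, limma adjusted p = 0.00077), and the linker histone Hist1h1e 146 to 216 FPKM against 242 to 333 FPKM (0.55 ± 0.09, adjusted p = 0.0018). Close paralogs make the level of a single histone gene uncertain. DMOG libraries lay near roxadustat libraries: Hist1h4j had 37.7, 57.9 and 62.9 FPKM there, and the median difference between the drugs was 0.02. The median with DMOG against PBS was 0.47, in a comparison that shares the PBS libraries. For roxadustat against PBS, 3 were called with the lens covariate, 4 without the lens-rich libraries and 0 with the blood covariate. The medians were 0.48, 0.43 and 0.21. Rpph1 and Rmrp, RNAs that also lack poly(A) tails, took a mean of 14.1% of the FPKM total in PBS, 18.6% in DMOG and 17.9% in roxadustat libraries, and their part in the histone values was not tested. None of 28 cell division genes was called, and their median was 0.10.

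Other single genes called higher, also picked after their values were seen, were Penk, the proenkephalin gene (4.16 to 14.5 FPKM in PBS, 12.6 to 19.2 FPKM with roxadustat, 1.04 ± 0.24, limma adjusted p = 0.024, and adjusted p = 0.087 with the lens and 0.15 with the blood covariate), and the cytokine gene Mif, an inhibitor of macrophage migration (1.03).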
